A study of Mus musculus with 24 samples.

Results

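The genes described here encode the enzymes that make cholesterol and fatty acids, the machinery of the sterol regulatory element–binding proteins (SREBPs) that control their transcription, and a small group of sterol transport genes. The 36 members are a list of names that was chosen with earlier results of these data known. Counts of members beside the shares of all genes are therefore description, not an independent test of the list. All 36 were found among the 55385 gene identifiers of the count tables and passed the filter on low counts in each comparison. They fall into 19 enzymes of cholesterol synthesis (8 of the mevalonate steps and 11 of the squalene and sterol steps), 9 enzymes of fatty acid synthesis and desaturation, 5 regulators of SREBP processing and 3 genes of sterol transport and efflux.

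Cells build cholesterol from acetyl-CoA through mevalonate, farnesyl diphosphate and squalene, and build fatty acids from the same acetyl-CoA through malonyl-CoA. The SREBP precursors sit in the membrane of the endoplasmic reticulum bound to the escort SCAP, which the INSIG proteins hold back when sterols are plentiful. When sterols fall, the escort carries SREBP to the Golgi, where proteases release the active factor, and SREBP2 (Srebf2) is best known for the cholesterol genes and SREBP1 (Srebf1) for the fatty acid genes. The adult brain makes its own cholesterol, since lipoproteins do not cross the blood-brain barrier, and mTOR complex 1, which the product of Tsc1 restrains together with that of Tsc2, is known to promote SREBP activity.

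Hippocampal RNA of 24 adult mice was measured by stranded total RNA-Seq after ribosomal RNA depletion, with 4 mice in each of 6 groups. All mice carried Tsc1f/f alleles and received tamoxifen. The controls (Tsc1-Cre-) were Tsc1f/f-Tg(Camk2a-CreERT2-) mice taken on day 8, counted from the start of tamoxifen. The Tsc1f/f-Tg (Camk2a-CreERT2+) mice (Tsc1-Cre+), in which tamoxifen deletes Tsc1 in CAMK2A neurons only, were taken on day 4, day 6, day 8 or day 13, and a last group (Tsc1-Cre+-Rap 4) received 10 mg/kg of the mTOR inhibitor rapamycin daily from day 4 and was taken on day 13. Untreated Cre+ mice begin to have seizures around day 8 in this model. Both sexes were used, and no group of rapamycin-treated controls was analysed here, so an effect of the drug itself and an effect on mice with the deletion cannot be told apart.

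The libraries held 28208561 to 126435936 counts each (median 55582027). Tsc1 itself was at 103 to 110.4 CPM (counts scaled to a common library size) in the controls and lower in every Cre+ mouse, at 75.9 to 82.02 on day 4, 69.6 to 74.6 on day 6, 67.4 to 76.1 on day 8, 56.7 to 68.1 on day 13 and 66.3 to 68.98 with rapamycin. By their animal numbers, which are not part of the sample titles, the mice fell into several series. Control and day 8 mice shared series, unlike the other groups. For those groups the time point or treatment and the animal series cannot be told apart. Whether the series mark litters or cohorts was not stated in the sources used here. The hippocampal markers Prox1, Neurod6 and Spink8 were detected in all mice, as were markers of astrocytes, oligodendrocytes and microglia. In bulk tissue, fewer cells of a type and less RNA per cell cannot be told apart. In the sentences that follow, "rose" and "fell" are used for an adjusted p under 0.05 (edgeR's quasi-likelihood test, 4 mice against 4), fold changes are on the log2 scale with their standard error (SE), and a gene was called differentially expressed (DE) when its absolute log2 fold change was also over 0.5.

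SREBPs bind the sterol regulatory element, usually beside an NF-Y box (CCAAT) or an Sp1 box, so the promoters of members from different lists are shown next to each other. The sequences are the 250 bases before the RefSeq transcription start (GRCm38.p6), 5′ to 3′ on the strand of the gene, and capitals mark matches of TCACNCCAC and CCAAT on either strand. The windows lie at chr13:119690101-119690350 (plus strand) for Hmgcs1, chr8:64733579-64733828 (minus strand) for Msmo1, chr5:28071162-28071411 (plus strand) for Insig1, chr11:120824548-120824797 (minus strand) for Fasn and chr4:53159896-53160145 (minus strand) for Abca1. Hmgcs1 stands for the mevalonate steps, Msmo1 for the squalene and sterol steps and Insig1 for the regulators. Fasn stands for fatty acid synthesis and Abca1 for a gene that moved opposite to most cholesterol enzymes.
Hmgcs1: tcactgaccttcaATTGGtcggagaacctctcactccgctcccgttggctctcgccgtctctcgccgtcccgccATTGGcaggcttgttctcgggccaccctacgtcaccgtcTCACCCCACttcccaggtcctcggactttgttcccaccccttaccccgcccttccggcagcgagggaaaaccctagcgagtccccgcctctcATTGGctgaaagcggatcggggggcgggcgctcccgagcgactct
Msmo1: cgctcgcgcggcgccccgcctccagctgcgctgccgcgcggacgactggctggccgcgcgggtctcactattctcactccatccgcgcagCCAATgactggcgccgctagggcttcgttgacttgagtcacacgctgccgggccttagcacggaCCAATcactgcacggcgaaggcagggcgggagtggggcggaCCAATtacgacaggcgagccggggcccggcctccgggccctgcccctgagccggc
Insig1: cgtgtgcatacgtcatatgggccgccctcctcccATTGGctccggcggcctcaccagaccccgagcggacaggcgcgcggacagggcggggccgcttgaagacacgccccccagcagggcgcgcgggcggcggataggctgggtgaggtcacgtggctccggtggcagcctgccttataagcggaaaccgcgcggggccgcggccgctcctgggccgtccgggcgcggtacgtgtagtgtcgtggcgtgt
Fasn: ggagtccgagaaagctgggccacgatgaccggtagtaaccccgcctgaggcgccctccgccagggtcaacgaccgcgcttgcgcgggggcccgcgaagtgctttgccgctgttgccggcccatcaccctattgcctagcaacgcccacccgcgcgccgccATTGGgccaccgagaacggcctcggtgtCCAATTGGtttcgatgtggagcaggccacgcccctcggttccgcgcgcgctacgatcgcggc
Abca1: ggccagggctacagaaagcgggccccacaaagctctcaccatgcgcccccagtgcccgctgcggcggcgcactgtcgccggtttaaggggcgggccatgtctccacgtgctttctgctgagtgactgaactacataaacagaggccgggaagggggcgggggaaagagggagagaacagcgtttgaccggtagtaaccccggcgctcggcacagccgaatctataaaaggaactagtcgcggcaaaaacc

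The Hmgcs1 sequence held the only match of TCACNCCAC among the members with a promoter window. It was TCACCCCAC on the plus strand with its first base at position -137 from the start. Of the 36 members, 28 matched a window by symbol, with 36 windows between them, each of 250 bases before and 50 after a start. The members without one were Abcg1, Fads1, Fdft1, Fdps, Scd1, Scd2, Sqle and Stard4. The sterol element, searched as TCACNCCAC on both strands, was in 1 of the 36 windows (2.8%) and in 1.2% of all 32851 windows. CCAAT was in 23 of the 36 windows (63.9%) against 37.4% of all windows, and the Sp1 box GGGCGG in 27 (75.0%) against 35.7%. By list, CCAAT was in 75.0% of 8 windows of the mevalonate steps, 81.8% of 11 of the squalene and sterol steps, 50% of 6 of fatty acid synthesis and 50% of 10 of the regulators, while the window of Abca1 held none. Several windows can belong to a single gene, and a match is a description of the letters, not a binding site. Other spellings of the sterol element were not searched, so a window without a match is not shown to lack the element.

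**Figure D1:**
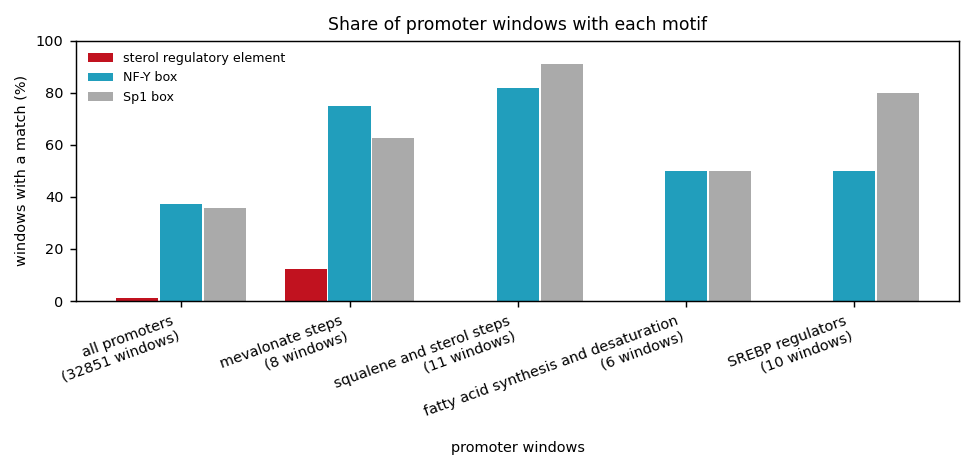
Share of promoter windows (percent, y axis) with at least 1 match of the sterol regulatory element (red), the NF-Y box (blue) and the Sp1 box (grey), for all 32851 windows and for the windows of the member lists. The NF-Y box was in 37.4% of all windows and in 81.8% of those of the squalene and sterol steps, and the sterol element was found in a single member window, that of Hmgcs1.

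The members differed widely in level before any deletion. In the controls, CPM per kilobase of exon was lowest for the mevalonate enzyme Fdps (1.07 ± 0.0992) and the isomerase Idi1 (1.90 ± 0.0506) and highest for the desaturase Scd2 (251 ± 10.0), mean ± SD over 4 mice. All other members lay between 2.89, for the sterol reductase Dhcr7, and 41.4, for the fatty acid synthase Fasn. On this scale Srebf2 (19.1 ± 1.24) was higher than Srebf1 (12.2 ± 1.14), and Insig1 (16.8 ± 0.815) higher than Insig2 (9.69 ± 0.612). Reads of some members could be shared with a near-identical gene, and the handling of such reads was not stated in the sources used here, so these values are uncertain. This holds for Fdps and its copies, of which Gm7979 had 41.0% as many counts, for Acat2 and Acat3 (16.1%), and for Fdft1, Idi1, Ggps1, Acaca and Elovl6, whose copies held 2.13% or less each. It also holds for Scd1 and Scd2, and for Tm7sf2 and Fdps, whose exons overlap Vps51 and Gm43738 on the same strand. The exons of Hmgcs1, Idi1, Ggps1, Fdft1, Lss, Cyp51, Acss2, Elovl6, Srebf1 and Scap overlap a gene on the opposite strand, and the strand setting of the counting was not stated in the sources used here.

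The first comparison asked whether lipid synthesis genes had moved on day 4, right after the last tamoxifen injection. None of the 36 members passed the test, against 2.61% of all 25308 genes tested that rose and 1.56% that fell. An unadjusted p under 0.05 was found for 11 of the 36 members and for 4654 of the 25308 genes (DESeq2 called 3 members, all lower). The median log2 fold change was -0.045 over the members, -0.079 over cholesterol synthesis and -0.0047 over all genes. The largest absolute differences were those of Msmo1 (-0.23, SE 0.079, adjusted p = 0.135), Hsd17b7 (-0.18, SE 0.065, adjusted p = 0.151) and Hmgcs1 (-0.17, SE 0.069, adjusted p = 0.219). Day 4 mouse C was the lowest of its group for most cholesterol enzymes, with a mean log2 level of the 19 enzymes of -0.26 relative to the controls, while the other 3 mice lay at -0.01. The day 4 mice all lay above the controls for 1 member (Srebf2) and all below for 6, which was so for 5.95% and 5.69% of all genes.

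By day 6, before seizures, cholesterol synthesis was up along nearly its whole length. Of the 19 enzymes 16 rose and none fell, with a median log2 fold change of 0.43, whereas 5 of the 9 fatty acid enzymes rose, with a median of 0.12. Over all 36 members 24 rose and 2 fell, while 6.24% of the 25057 genes tested rose and 3.81% fell, with a median of -0.018 over all genes. The DE call, with its minimum on the fold change, was met by 10 members, all higher, and by 1.32% of all genes (0.647% higher). The 4 day 6 mice all lay above the 4 controls for 24 members and below for 1, Abca1, which was so for 9.31% and 6.62% of all genes. In order of absolute log2 fold change, the members that passed were Mvd (0.83), Sqle (0.75), Idi1 (0.64), Fdps (0.63), Nsdhl (0.62), Msmo1 (0.61), Fdft1 (0.60), Hmgcs1 (0.54), Stard4 (0.52), Insig1 (0.50), Acat2 (0.48), Dhcr7 (0.43), Cyp51 (0.39), Abca1 (-0.38), Mvk (0.38), Hsd17b7 (0.37), Sc5d (0.36), Ebp (0.32), Srebf2 (0.30) and Acly (0.23), followed by 6 smaller changes. In a fit of all 24 mice, which share 1 estimate of the spread, 8 members passed higher and 1 lower on day 6. Of these 26 calls 21 held with any single mouse left out, and 5 were lost without certain mice, those of Lss (without day 6 B, adjusted p 0.0522), Ebp (without control C or day 6 A/B/D, adjusted p 0.0626 to 0.102), Acaca (without control B/C/D or day 6 A/B/C, adjusted p 0.0543 to 0.115), Elovl6 (without control C/D or day 6 A/D, adjusted p 0.0562 to 0.0663) and Srebf1 (without control B/C/D or day 6 A/C/D, adjusted p 0.0585 to 0.106). Among the markers of other cell types, 6 of 7 astrocyte, 4 of 8 oligodendrocyte, 3 of 6 microglial and 1 of 3 endothelial markers fell on day 6, and 1 of 4 markers of excitatory neurons rose. Their summed levels were 5210.0 to 5500.5 against 5653 to 6231 CPM in the controls for astrocytes, 1934 to 2095 against 1858 to 2959 for oligodendrocytes and 154 to 165 against 169 to 201 for microglia. Most of the astrocyte sum was Slc1a2, at 4023 to 4309 CPM on day 6 against 4289 to 4799 in the controls. The part of the markers in the result was not tested.

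The step from day 4 to day 6 was tested directly, without the controls. From day 4 to day 6, 21 members rose and 2 fell, against 2.33% and 1.8% of the 25184 genes tested, and 13 members, all higher, met the DE call against 0.604% of all genes. Of the cholesterol enzymes 15 rose, with a median of 0.55, led by Msmo1 (0.84, SE 0.081, adjusted p = 0.000183), Mvd (0.81, SE 0.089, adjusted p = 0.000298) and Sqle (0.76, SE 0.081, adjusted p = 0.00021). Of the fatty acid enzymes 4 rose, Acly, Acss2, Fasn and Elovl6, by 0.18 to 0.24. Of these 23 calls 20 held with any single mouse left out, and 3 were lost without certain mice, those of Acly (without day 6 B, adjusted p 0.0613), Acss2 (without day 6 A, adjusted p 0.0512) and Srebf1 (without day 4 B/C/D or day 6 A/B/C/D, adjusted p 0.0533 to 0.131). In the fit of all 24 mice 8 members passed, all higher. Of the markers, 3 of 7 astrocyte and 2 of 8 oligodendrocyte markers fell from day 4 to day 6 and 2 of 4 excitatory neuron markers rose, and their part in the result was not tested.

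On day 8, around seizure onset, the rise of the cholesterol genes was larger and that of the fatty acid genes stayed small. Of the 19 cholesterol enzymes 17 rose, with a median log2 fold change of 0.74, and of the 9 fatty acid enzymes 5 rose, with a median of 0.16. Over all members 25 rose and 1, the efflux pump Abca1, fell, against 8.41% and 4.87% of the 25085 genes tested, and 18 met the DE call, all higher, against 3.99% of all genes (2.15% higher). The values of the 4 day 8 mice all lay above those of the 4 controls for 25 members and below for 1, Abca1, which was so for 11.0% and 9.24% of all genes. The members that passed were, in order, Mvd (1.18), Sqle (1.06), Fdps (0.99), Hmgcs1 (0.99), Fdft1 (0.98), Nsdhl (0.98), Idi1 (0.93), Msmo1 (0.90), Acat2 (0.84), Stard4 (0.82), Insig1 (0.81), Mvk (0.74), Cyp51 (0.72), Dhcr7 (0.57), Acly (0.57), Hsd17b7 (0.56), Sc5d (0.55), Ebp (0.51), Abca1 (-0.50) and Lss (0.43). Of these 26 calls 23 held with any single mouse left out, and 3 were lost without certain mice, those of Pmvk (without control A/B/C/D or day 8 A/C/D, adjusted p 0.0668 to 0.126), Elovl6 (without control A/B/C/D or day 8 A/B/C, adjusted p 0.0544 to 0.146) and Srebf2 (without control A/B/C/D or day 8 A/B, adjusted p 0.0503 to 0.0909). Day 8 mice A and C had 673 and 889 CPM of the astrocyte marker Gfap, against 126 and 158 in mice B and D and 163 to 210.2 in the controls. The mean log2 level of the 19 cholesterol enzymes relative to the controls was 0.75 and 0.68 in A and C and 0.69 and 0.69 in B and D. Of the marker lists, 3 of 7 astrocyte, 3 of 8 oligodendrocyte and 2 of 6 microglial markers fell on day 8 and 1 of 4 markers of excitatory neurons rose. The summed levels were 5238 to 5537 CPM for astrocytes, 1617 to 1968 for oligodendrocytes, 158 to 185 for microglia and 1013 to 1238 for excitatory neurons, against 873 to 1034 for the last in the controls. Most of the excitatory neuron sum was Slc17a7, at 773 to 992 CPM on day 8. The part of the markers in the result was not tested. The control and day 8 mice shared their animal series, and with the series as a block 24 members rose and 1 fell.

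From day 6 to day 8, tested directly, 6 members rose and none fell, against 0.338% of the 24871 genes that rose and 0.0804% that fell. They were Hmgcs1 (0.44, SE 0.058, adjusted p = 0.0262), Fdft1 (0.38, SE 0.064, adjusted p = 0.0421), Nsdhl (0.36, SE 0.065, adjusted p = 0.0498), Acat2 (0.35, SE 0.065, adjusted p = 0.0498), Acly (0.32, SE 0.055, adjusted p = 0.0421) and Stard4 (0.30, SE 0.054, adjusted p = 0.0497). All 19 cholesterol enzymes had a log2 fold change above 0, with a median of 0.29 against 0.0008 over all genes. An unadjusted p under 0.05 was found for 22 of the 36 members and for 4264 of the 24871 genes. All 6 calls were lost without day 6 mouse A, B, C or D or without day 8 mouse A, with adjusted p from 0.0602 to 0.202, and in the fit of all 24 mice 1 member passed. Of the markers, 1 of 7 astrocyte markers (Aldh1l1) rose, and its part in the result was not tested.

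On day 13 cholesterol synthesis was higher and fatty acid synthesis mixed, and the mean level of the cholesterol enzymes varied more between mice than in any other group. Of the 19 enzymes 15 rose, all past the DE fold, with a median log2 fold change of 0.88. Of the fatty acid enzymes Acly and Acaca rose, and the median was -0.010. Over all members 19 rose and 2 fell (Abca1 and Srebf1), against 15.6% and 11.3% of the 24920 genes tested, and 18 met the DE call higher and 1 lower, against 8.4% and 8.06% of all genes. The day 13 mice all lay above the controls for 18 members and all below for 2, against 15.2% and 15.4% of all genes. In order, the members that passed were Hmgcs1 (1.46), Sqle (1.37), Mvd (1.34), Msmo1 (1.25), Idi1 (1.22), Fdft1 (1.18), Cyp51 (1.17), Nsdhl (1.11), Insig1 (0.98), Fdps (0.96), Acat2 (0.88), Stard4 (0.86), Ebp (0.79), Acly (0.76), Hsd17b7 (0.73), Sc5d (0.72), Mvk (0.70), Dhcr7 (0.58), Srebf1 (-0.52) and Abca1 (-0.37), and Acaca (0.21). Mouse B, which was also the most deeply sequenced, had a mean log2 level of the 19 cholesterol enzymes of 0.44 relative to the controls, and mice A, C and D had 1.07, 0.94 and 0.78. Without mouse B, 22 members rose and 1 fell. By their animal numbers, mice A and B belonged to one series and C and D to others. Without A and B, 23 members rose and 1 fell, and without C and D, 18 rose and 5 fell. These pairs were chosen after the data were seen. Shares of all genes are not given for the fits without these mice, so the shifts in count cannot be called particular to the members. Of these 21 calls 16 held with any single mouse left out, and 5 were lost without certain mice, those of Mvk (without control A/B/C/D or day 13 D, adjusted p 0.0502 to 0.0686), Dhcr7 (without control A/B/C/D or day 13 A/C/D, adjusted p 0.0531 to 0.0854), Acaca (without control A/B/C/D, adjusted p 0.0584 to 0.101), Srebf1 (without control A/B/C/D or day 13 A/B, adjusted p 0.0517 to 0.0979) and Abca1 (without control C, adjusted p 0.0552). Gfap was at 365 to 1346 CPM on day 13, highest in mouse B, and 1 of 7 astrocyte markers rose (Gfap) and 1 fell (Gja1). Of the others, 1 of 6 microglial, 1 of 3 endothelial and 1 of 4 excitatory neuron markers rose, and no oligodendrocyte marker passed. Summed levels of astrocyte, microglial and oligodendrocyte markers were 5207 to 6160.0, 176 to 249 and 1496 to 2948 CPM. Their part in the result was not tested.

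Between day 8 and day 13 no member passed, and no gene of the 24747 tested did by edgeR, while 3479 genes and 6 members had an unadjusted p under 0.05 and DESeq2 gave 207 genes that were higher and 111 that were lower by its adjusted p. The largest differences among members were those of Hmgcs1 (0.47, SE 0.19, adjusted p = 0.331), Cyp51 (0.45, SE 0.17, adjusted p = 0.316) and Tm7sf2 (-0.41, SE 0.16, adjusted p = 0.324). The only members without overlap between the groups were Ebp, higher on day 13, and Elovl6, lower, when 3.31% of all genes were higher without overlap and 3.69% lower.

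**Figure D2:**
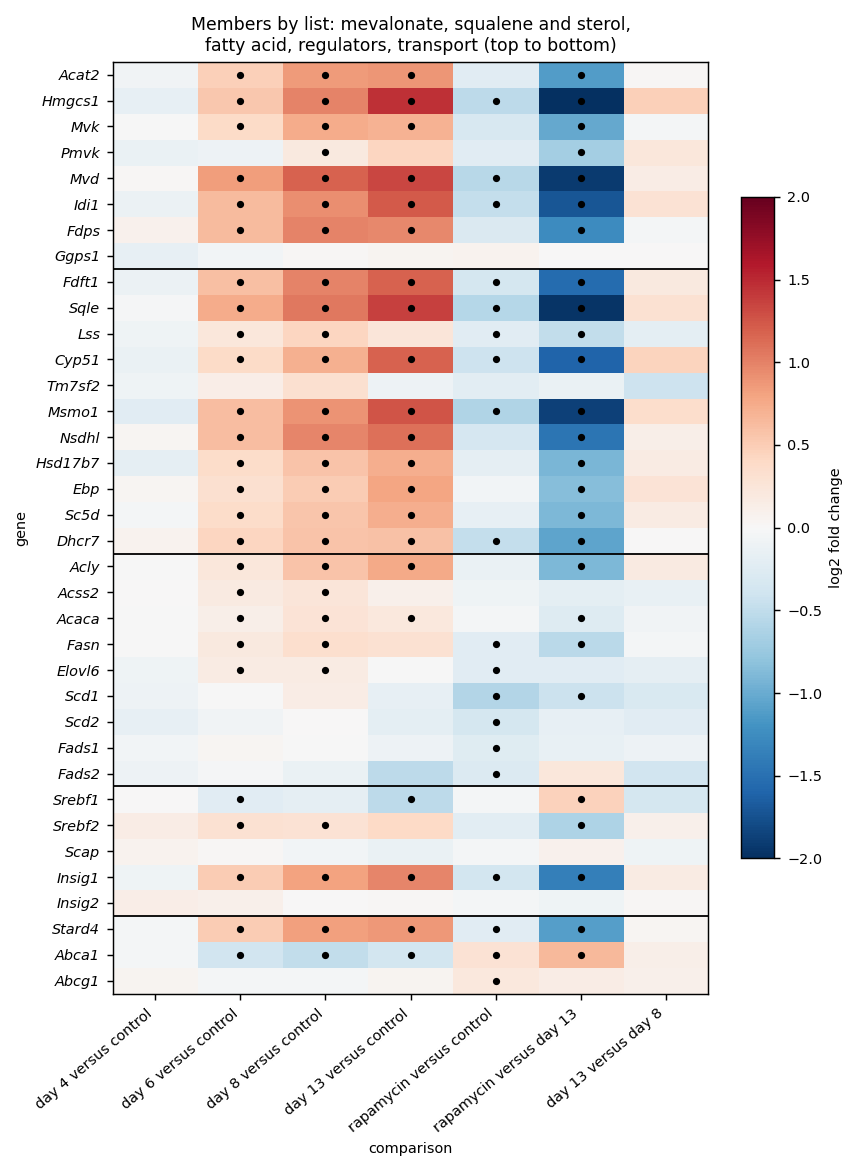
Log2 fold change (colour, from -2 in blue to 2 in red) of the 36 members (rows, grouped by list) in 7 comparisons (columns), with a dot where the adjusted p was under 0.05. Most cholesterol enzymes are red with dots in the columns of day 6 to day 13 against the controls, and blue under rapamycin, Abca1 has the opposite colours, and the columns of day 4 versus control and day 13 versus day 8 hold no dots.

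In the mice given rapamycin much of the pathway lay below the controls. Of the 36 members 17 fell and 2 rose, against 2.31% and 1.26% of the 25006 genes tested, and 5 met the DE call, all lower, against 1.04% of all genes that were lower by this call and 1.41% in both directions. Of all genes 3.57% passed the adjusted p in either direction. Of the cholesterol enzymes 9 fell, with a median log2 fold change of -0.32, and of the fatty acid enzymes 6 fell, with a median of -0.22. The 4 rapamycin mice all lay below the 4 controls for 24 members and above for 2, Abca1 and Abcg1, which was so for 6.74% and 5.09% of all genes. The members that passed were, in order, Msmo1 (-0.60), Scd1 (-0.58), Sqle (-0.58), Mvd (-0.55), Hmgcs1 (-0.53), Idi1 (-0.48), Dhcr7 (-0.47), Cyp51 (-0.42), Insig1 (-0.37), Scd2 (-0.36), Fdft1 (-0.35), Abca1 (0.29), Fads2 (-0.27), Fads1 (-0.24), Stard4 (-0.23), Lss (-0.23), Elovl6 (-0.22), Fasn (-0.22) and Abcg1 (0.21). Of these 19 calls 12 held with any single mouse left out, and 7 were lost without certain mice, those of Lss (without control A/B/C/D or rapamycin A/B/D, adjusted p 0.0681 to 0.137), Fasn (without control A/B/C/D or rapamycin A/C, adjusted p 0.0564 to 0.101), Elovl6 (without control A/B/C/D or rapamycin B/C, adjusted p 0.058 to 0.103), Insig1 (without control C/D or rapamycin B, adjusted p 0.0512 to 0.0545), Stard4 (without control B/C/D or rapamycin B/C, adjusted p 0.0501 to 0.102), Abca1 (without control A or rapamycin B, adjusted p 0.0511 to 0.0546) and Abcg1 (without control A or rapamycin B, adjusted p 0.0532 to 0.0628). Without rapamycin mouse D, 3 members met the DE call, and in the fit of all 24 mice 6 members fell and 1 rose. Of the markers, 1 of 3 endothelial, 3 of 8 oligodendrocyte, 2 of 7 astrocyte and 5 of 6 microglial markers fell, the last 3 lists with summed levels of 1539 to 2105, 5602 to 5761 and 129 to 142 CPM, against 1858 to 2959, 5653 to 6231 and 169 to 201 in the controls, and their part in the result was not tested.

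Against untreated mice of the same day, day 13, the rapamycin group had 24 members that fell and 2, Abca1 and Srebf1, that rose, when 17.7% of the 24274 genes tested fell and 13.1% rose. The DE call was met by 21 members lower and 1 higher, against 11.2% and 9.94% of all genes. Of all genes 30.8% passed the adjusted p in either direction. Of the cholesterol enzymes 17 fell, with a median of -1.12, and of the fatty acid enzymes 4 fell, with a median of -0.22. The 20 largest changes were those of Hmgcs1 (-1.998), Sqle (-1.96), Mvd (-1.91), Msmo1 (-1.86), Idi1 (-1.71), Cyp51 (-1.60), Fdft1 (-1.55), Nsdhl (-1.45), Insig1 (-1.36), Fdps (-1.26), Acat2 (-1.12), Stard4 (-1.11), Dhcr7 (-1.06), Mvk (-1.03), Hsd17b7 (-0.92), Sc5d (-0.90), Acly (-0.90), Ebp (-0.85), Pmvk (-0.67) and Abca1 (0.65). Of these 26 calls 23 held with any single mouse left out, and 3 were lost without certain mice, those of Lss (without rapamycin A/B/D, adjusted p 0.0525 to 0.0701), Scd1 (without day 13 A/C/D or rapamycin A/B/C, adjusted p 0.0662 to 0.127) and Srebf1 (without day 13 A/B or rapamycin A/B/C/D, adjusted p 0.0724 to 0.118). In this comparison 3 of 7 astrocyte, 4 of 6 microglial, 2 of 3 endothelial, 1 of 8 oligodendrocyte, 1 of 4 excitatory neuron and 1 of 5 choroid plexus markers also fell, 1 astrocyte marker (Gja1) rose, and their part in the result was not tested. Both this comparison and the ones with the controls use the same rapamycin mice, so their values are given next to each other and not as separate evidence.

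The first committed steps toward cholesterol make mevalonate from acetyl-CoA, and Hmgcs1 is the HMG-CoA synthase among them. Hmgcs1 was at 140.4, 135, 135 and 132 CPM in the controls and at 124, 124, 100.4 and 134 on day 4. It was at 195, 206, 206 and 180.3 on day 6, 275, 246, 274 and 273 on day 8 and 516, 248, 369.8 and 346 on day 13, and at 86.1, 93.4, 107 and 87.04 with rapamycin. Every mouse of day 6, day 8 and day 13 lay above every control, and every rapamycin mouse below. Hmgcs1 had log2 fold changes (± SE) against the controls of -0.17 ± 0.069 on day 4 (adjusted p = 0.219), 0.54 ± 0.044 on day 6 (adjusted p = 1.37e-05), 0.99 ± 0.053 on day 8 (adjusted p = 6.89e-06), 1.46 ± 0.19 on day 13 (adjusted p = 0.00109) and -0.53 ± 0.066 with rapamycin (adjusted p = 0.00122). With rapamycin against day 13 the value for Hmgcs1 was -1.998 ± 0.20 (adjusted p = 0.000284). On day 13 its fitted level was 2.75-fold that of the controls.

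Further along the mevalonate steps, Mvd, the mevalonate diphosphate decarboxylase, had the largest log2 fold change of all members on day 6 and day 8. Mvd was at 8.99, 9.30, 8.63 and 8.86 CPM in the controls, 9.37, 9.87, 7.62 and 9.44 on day 4, 14.4, 17.9, 16.6 and 14.8 on day 6, 21.8, 18.7, 19.2 and 21.1 on day 8, 27.6, 15.9, 26.4 and 19.99 on day 13 and 6.21, 5.99, 6.997 and 5.02 with rapamycin. The controls and day 4 overlapped, and the later untreated groups lay above both. For Mvd the log2 fold change (± SE) against the controls was 0.021 ± 0.086 on day 4 (adjusted p = 0.93), 0.83 ± 0.077 on day 6 (adjusted p = 3.28e-05), 1.18 ± 0.074 on day 8 (adjusted p = 1.63e-05), 1.34 ± 0.17 on day 13 (adjusted p = 0.0011) and -0.55 ± 0.11 with rapamycin (adjusted p = 0.013), and for rapamycin against day 13 it was -1.91 ± 0.19 (adjusted p = 0.000332). Idi1, which isomerizes isopentenyl diphosphate, went from 6.50 to 6.91 CPM in the controls to 10.9, 10.1, 10.3 and 10.2 on day 6, 13.9, 11.1, 12.5 and 12.8 on day 8 and 19.1, 10.3, 17.6 and 14.5 on day 13, and was at 4.72, 4.38, 5.18 and 4.71 with rapamycin. The later untreated groups lay above the controls and the rapamycin group below. Against the controls, Idi1 had a log2 fold change (± SE) of -0.12 ± 0.13 on day 4 (adjusted p = 0.678), 0.64 ± 0.070 on day 6 (adjusted p = 0.000116), 0.93 ± 0.088 on day 8 (adjusted p = 0.00021), 1.22 ± 0.18 on day 13 (adjusted p = 0.00206) and -0.48 ± 0.096 with rapamycin (adjusted p = 0.0172), and it had -1.71 ± 0.19 (adjusted p = 0.000483) with rapamycin against day 13. Fdps, the farnesyl diphosphate synthase, went from 4.59, 4.14, 5.08 and 4.26 CPM in the controls to 6.81, 7.46, 7.27 and 6.61 on day 6, 10.2, 8.74, 8.70 and 8.13 on day 8 and 9.10, 5.16, 11.1 and 9.54 on day 13, with 3.82, 3.86, 4.16 and 2.84 under rapamycin, where it overlapped the controls. Fdps had log2 fold changes (± SE) against the controls of 0.087 ± 0.12 on day 4 (adjusted p = 0.76), 0.63 ± 0.092 on day 6 (adjusted p = 0.000979), 0.99 ± 0.11 on day 8 (adjusted p = 0.000432), 0.96 ± 0.22 on day 13 (adjusted p = 0.0129) and -0.29 ± 0.14 with rapamycin (adjusted p = 0.279). With rapamycin against day 13 the value for Fdps was -1.26 ± 0.24 (adjusted p = 0.00417).

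The other mevalonate members were less uniform. The thiolase Acat2 and the mevalonate kinase Mvk rose on day 6 (0.48 and 0.38), day 8 (0.84 and 0.74) and day 13 (0.88 and 0.70). Neither passed against the controls with rapamycin (-0.23 and -0.32). Pmvk, the next kinase, had a log2 fold change of -0.096 on day 6, where it did not pass, and rose by 0.20 on day 8. Ggps1 sends farnesyl diphosphate away from sterols, toward the lipid anchors of small GTPases, and was the mevalonate member that passed in no comparison. It was at 62.1 to 68.9 CPM in the controls, 55.1 to 60.96 on day 4, where all mice lay below the controls, 59.2 to 66.9 on day 6, 63.2 to 70.8 on day 8, 64.4 to 70.1 on day 13 and 66.3 to 69.3 with rapamycin, with log2 fold changes against the controls from -0.16 on day 4 to 0.071 with rapamycin.

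The squalene and sterol steps begin with Fdft1, the squalene synthase, and Sqle, the squalene epoxidase, a control point of the later pathway. Sqle was at 45.01, 41.95, 47.6 and 45.5 CPM in the controls and 44.2, 48.6, 35.3 and 49.5 on day 4, with overlap. It was at 76.2, 81.3, 74.6 and 70.8 on day 6, 97.3, 101, 86.97 and 88.6 on day 8, 144, 85.1, 124 and 108 on day 13 and 32.2, 29.3, 32.1 and 26.4 with rapamycin. The untreated groups from day 6 on lay above the controls without overlap, and the rapamycin group below. For Sqle the log2 fold change (± SE) against the controls was -0.019 ± 0.087 on day 4 (adjusted p = 0.937), 0.75 ± 0.048 on day 6 (adjusted p = 2.15e-06), 1.06 ± 0.061 on day 8 (adjusted p = 1.04e-05), 1.37 ± 0.15 on day 13 (adjusted p = 0.000571) and -0.58 ± 0.069 with rapamycin (adjusted p = 0.00107), and for rapamycin against day 13 it was -1.96 ± 0.16 (adjusted p = 0.000154). Fdft1 was at 49.3, 45.9, 48.8 and 44.5 CPM in the controls, 97.3, 90.2, 92.9 and 90.8 on day 8, 134, 73.97, 111 and 105 on day 13 and 39.4, 35.8, 38.1 and 33.2 with rapamycin. Neither of these untreated groups nor the rapamycin group overlapped the controls. Against the controls, Fdft1 had a log2 fold change (± SE) of -0.12 ± 0.072 on day 4 (adjusted p = 0.427), 0.60 ± 0.060 on day 6 (adjusted p = 5.61e-05), 0.98 ± 0.051 on day 8 (adjusted p = 6.89e-06), 1.18 ± 0.16 on day 13 (adjusted p = 0.00125) and -0.35 ± 0.062 with rapamycin (adjusted p = 0.00793), and it had -1.55 ± 0.16 (adjusted p = 0.000381) with rapamycin against day 13.

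The demethylation complex that trims lanosterol moved in the same direction. Msmo1, the methylsterol monooxygenase, was at 61.2, 63.1, 59.7 and 59.6 CPM in the controls, 57.3, 52.7, 41.8 and 56.02 on day 4 and 99.8, 97.9, 90.8 and 84.6 on day 6. It was at 116, 104, 121 and 109.7 on day 8, 184, 121, 153 and 119 on day 13 and 45.2, 37.3, 42.7 and 34.4 with rapamycin. All day 4 and rapamycin mice lay below the controls and all others above, the day 4 difference not passing the test. Msmo1 had log2 fold changes (± SE) against the controls of -0.23 ± 0.079 on day 4 (adjusted p = 0.135), 0.61 ± 0.049 on day 6 (adjusted p = 1.23e-05), 0.90 ± 0.056 on day 8 (adjusted p = 1.63e-05), 1.25 ± 0.14 on day 13 (adjusted p = 0.000571) and -0.60 ± 0.075 with rapamycin (adjusted p = 0.00122). With rapamycin against day 13 the value for Msmo1 was -1.86 ± 0.15 (adjusted p = 0.000171). Nsdhl, the sterol dehydrogenase of the same step, was at 10.9, 9.16, 10.3 and 9.07 CPM in the controls, 14.8, 16.1, 13.9 and 15.7 on day 6, 19.1, 19.6, 18.8 and 19.9 on day 8 and 24.2, 13.6, 21.4 and 25.001 on day 13. None of these later mice overlapped the controls. For Nsdhl the log2 fold change (± SE) against the controls was 0.033 ± 0.10 on day 4 (adjusted p = 0.909), 0.62 ± 0.077 on day 6 (adjusted p = 0.000319), 0.98 ± 0.078 on day 8 (adjusted p = 6.56e-05), 1.11 ± 0.19 on day 13 (adjusted p = 0.00339) and -0.33 ± 0.089 with rapamycin (adjusted p = 0.0594), and for rapamycin against day 13 it was -1.45 ± 0.18 (adjusted p = 0.000751). Cyp51, the lanosterol demethylase, rose by 0.39 on day 6, 0.72 on day 8 and 1.17 on day 13. With rapamycin it fell by 0.42 on the log2 scale.

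The remaining sterol enzymes had smaller values. The reductase Hsd17b7, the isomerase Ebp, the desaturase Sc5d and the last reductase Dhcr7 rose by 0.32 to 0.43 on day 6, 0.51 to 0.57 on day 8 and 0.58 to 0.79 on day 13. Of these, Dhcr7 fell with rapamycin (-0.47, SE 0.075, adjusted p = 0.00475), and its day 13 mice overlapped the controls through mouse B, at 16.2 CPM against 16.5 to 17.2. Lss, the lanosterol synthase, rose on day 6 (0.23) and day 8 (0.43) and had 0.25, SE 0.14, adjusted p = 0.203 on day 13. Tm7sf2, a sterol reductase for which another enzyme can stand in, passed in no comparison, with log2 fold changes against the controls from -0.22 with rapamycin to 0.31 on day 8.

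**Figure D3:**
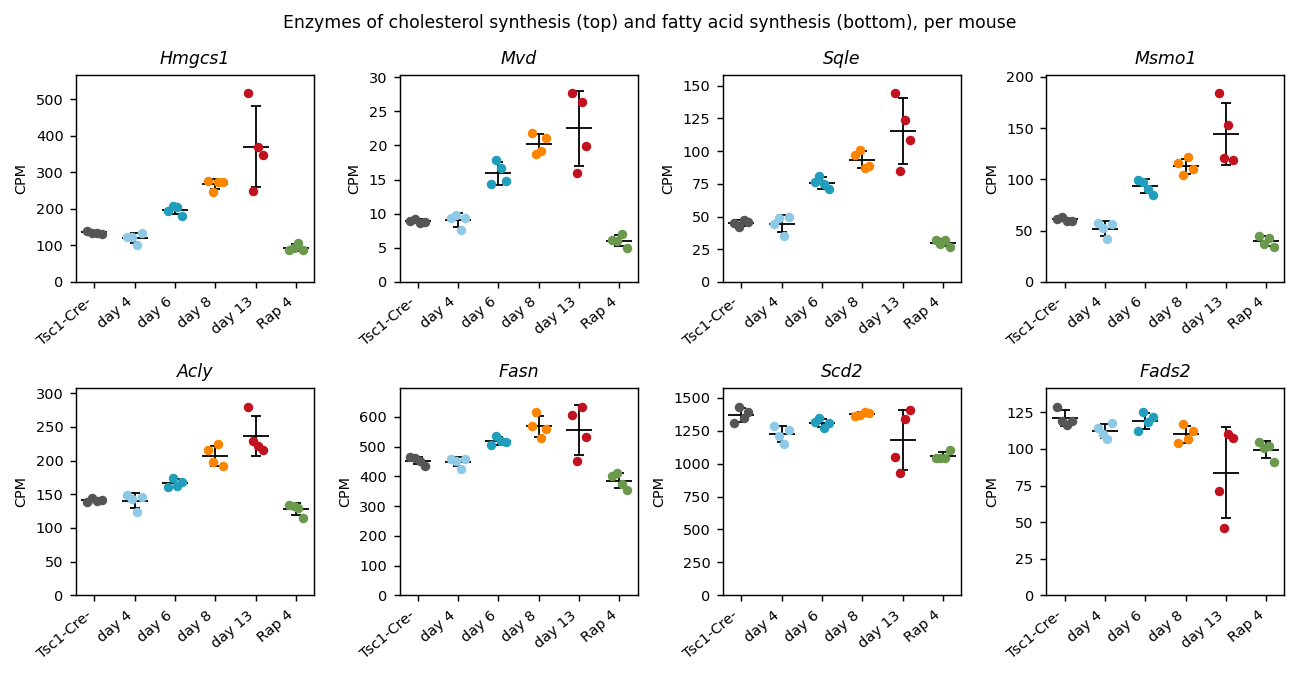
CPM (y axis, from 0) of 4 enzymes of cholesterol synthesis (top) and 4 of fatty acid synthesis and desaturation (bottom) in each mouse (points) by group, with the mean (horizontal line) and SD (error bars, 4 mice); Rap 4 is the rapamycin group. Hmgcs1 was at 246 to 275 CPM on day 8 against 132 to 140.4 in the controls, whereas Scd2 was at 1361 to 1393 against 1306 to 1433.

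Fatty acid synthesis starts with the supply of cytosolic acetyl-CoA, which sterol synthesis draws on too, and Acly, the ATP citrate lyase that supplies it, had the largest log2 fold change of the 9 on day 8 and day 13. Acly was at 138 to 145 CPM in the controls, 160.2 to 173 on day 6, 193 to 225 on day 8, 216 to 280.0 on day 13 and 114 to 135 with rapamycin. The untreated groups from day 6 on did not overlap the controls. Against the controls, Acly had a log2 fold change (± SE) of -0.0023 ± 0.051 on day 4 (adjusted p = 0.989), 0.23 ± 0.035 on day 6 (adjusted p = 0.0011), 0.57 ± 0.057 on day 8 (adjusted p = 0.000292), 0.76 ± 0.085 on day 13 (adjusted p = 0.000662) and -0.13 ± 0.054 with rapamycin (adjusted p = 0.23), and it had -0.90 ± 0.097 (adjusted p = 0.000417) with rapamycin against day 13. Acss2, which makes acetyl-CoA from acetate, rose on day 6 and day 8 (0.18 and 0.24) and had a log2 fold change of 0.10 on day 13. Acaca, the acetyl-CoA carboxylase, rose by 0.12, 0.27 and 0.21.

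Fasn, the synthase that builds palmitate, was at 465, 459.8, 452 and 435 CPM in the controls and 457, 452, 426 and 459 on day 4. It was at 506, 537, 518 and 516 on day 6, 568, 615, 529 and 560.2 on day 8, 607, 450.2, 634 and 531 on day 13 and 403, 410.5, 375 and 355 with rapamycin. Day 6 and day 8 lay above the controls, day 13 overlapped them through mouse B, and the rapamycin group lay below. Fasn had log2 fold changes (± SE) against the controls of -0.013 ± 0.042 on day 4 (adjusted p = 0.907), 0.19 ± 0.040 on day 6 (adjusted p = 0.00818), 0.33 ± 0.056 on day 8 (adjusted p = 0.00374), 0.31 ± 0.11 on day 13 (adjusted p = 0.0645) and -0.22 ± 0.053 with rapamycin (adjusted p = 0.0384). With rapamycin against day 13 the value for Fasn was -0.54 ± 0.12 (adjusted p = 0.00732). On day 8 the fitted level of Fasn was 1.26-fold that of the controls and the one of Hmgcs1 1.98-fold.

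The elongase rose little, and no desaturase passed the test in the untreated mice. Elovl6 rose by 0.16 on day 6 and 0.16 on day 8, and had -0.010 on day 13. None of Scd1, Scd2, Fads1 and Fads2 passed on day 6, day 8 or day 13, with log2 fold changes from -0.13 (Fads2) to 0.15 (Scd1) on day 8. On day 13 Fads2, the delta-6 desaturase, was at 71.2, 45.98, 110.2 and 108 CPM against 117 to 129 in the controls, lower without overlap (-0.52, SE 0.24, adjusted p = 0.14), with mice A and B the lowest. With rapamycin all 4 fell against the controls, Scd1 by 0.58, Scd2 by 0.36, Fads2 by 0.27 and Fads1 by 0.24 on the log2 scale. Scd1, which desaturates stearate, was at 125 to 158 CPM in the controls and 81.9 to 114 with rapamycin, and Scd2, its main brain homolog, at 1306 to 1433 and 1045 to 1105.

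From day 6 on, the contrast between both branches was present in each untreated mouse. The mean log2 CPM of the 19 cholesterol enzymes, relative to the controls, was -0.03 to 0.02 in the controls, -0.26 to -0.01 on day 4, 0.36 to 0.53 on day 6, 0.68 to 0.75 on day 8, 0.44 to 1.07 on day 13 and -0.43 to -0.27 with rapamycin. For the 9 fatty acid enzymes it was -0.01 to 0.02 in the controls, -0.14 to 0.01 on day 4, 0.07 to 0.13 on day 6, 0.16 to 0.18 on day 8, -0.25 to 0.15 on day 13 and -0.26 to -0.24 with rapamycin. The first minus the second was -0.05 to 0.03 in the controls, -0.11 to 0.05 on day 4, 0.25 to 0.40 on day 6, 0.50 to 0.59 on day 8, 0.63 to 1.06 on day 13 and -0.17 to -0.03 with rapamycin. So the branches parted in all 12 untreated mice from day 6 on, the cholesterol enzymes being higher, while with rapamycin both lay below the controls in all 4 mice. The difference in rapamycin mice A and C (-0.03 each) lay within the range of the controls. In mice B (-0.12) and D (-0.17) it lay below that range. The difference on day 13 mouse B (0.69) lay within the range of the other 3 mice, although both of its lists were the lowest of the group.

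**Figure D4:**
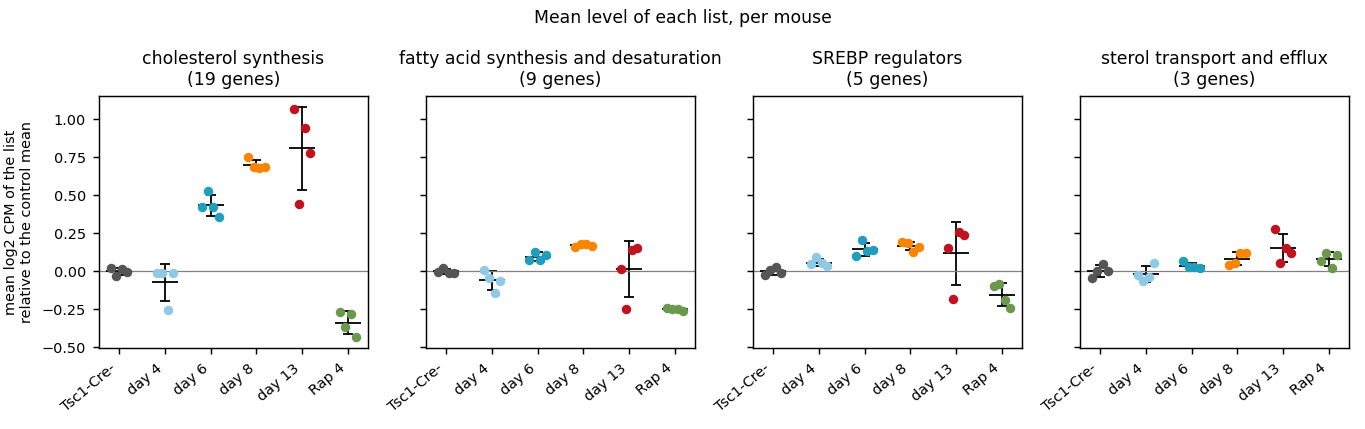
Mean log2 CPM of each list relative to the control mean (y axis) in each mouse (points) by group, with the mean (horizontal line) and SD (error bars, 4 mice); Rap 4 is the rapamycin group. Cholesterol synthesis lies at 0.36 or higher in each untreated mouse from day 6 on, and fatty acid synthesis at 0.18 or lower.

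Among the regulators, Insig1, which holds the SREBP escort back and is itself a known SREBP target, moved like the cholesterol enzymes. Insig1 was at 48.5, 51.8, 53.3 and 54.3 CPM in the controls, 50.97, 50.2, 46.3 and 47.95 on day 4 and 73.9, 83.3, 72.3 and 65.97 on day 6. It was at 90.9, 82.4, 94.9 and 95.1 on day 8, 136, 60.4, 107 and 105 on day 13 and 42.4, 37.9, 44.6 and 35.3 with rapamycin. From day 6 on each untreated mouse lay above the controls, with day 13 mouse B the nearest to them, and each rapamycin mouse lay below. For Insig1 the log2 fold change (± SE) against the controls was -0.089 ± 0.047 on day 4 (adjusted p = 0.34), 0.50 ± 0.059 on day 6 (adjusted p = 0.000208), 0.81 ± 0.060 on day 8 (adjusted p = 4.11e-05), 0.98 ± 0.20 on day 13 (adjusted p = 0.00823) and -0.37 ± 0.072 with rapamycin (adjusted p = 0.0151), and for rapamycin against day 13 it was -1.36 ± 0.21 (adjusted p = 0.00175). Insig2, the related anchor, passed in no comparison and had log2 fold changes against the controls from -0.045 with rapamycin to 0.14 on day 4.

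On day 6 Srebf2 rose and Srebf1 fell, but the call of Srebf1 was lost without control B, C or D or day 6 A, C or D. Srebf2, which encodes the factor of the cholesterol genes, was at 143, 139.8, 142 and 124 CPM in the controls, 157, 154, 143 and 155 on day 4, 157, 177, 169 and 175 on day 6, 177, 184, 149 and 156 on day 8, 215, 129, 194 and 181 on day 13 and 124, 127, 106 and 114 with rapamycin. Day 4, day 6 and day 8 lay above the controls, on day 4 narrowly and without passing the test, and day 13 overlapped them through mouse B. Against the controls, Srebf2 had a log2 fold change (± SE) of 0.15 ± 0.049 on day 4 (adjusted p = 0.121), 0.30 ± 0.050 on day 6 (adjusted p = 0.00246), 0.29 ± 0.075 on day 8 (adjusted p = 0.0292), 0.40 ± 0.14 on day 13 (adjusted p = 0.0657) and -0.21 ± 0.064 with rapamycin (adjusted p = 0.0879), and it had -0.62 ± 0.15 (adjusted p = 0.0107) with rapamycin against day 13. Srebf1, which encodes the factor of the fatty acid genes, was at 59.4, 73.3, 71.1 and 72.2 CPM in the controls, 62.1, 68.9, 77.6 and 69.5 on day 4, 55.3, 62.8, 57.8 and 61.6 on day 6, 59.01, 59.5, 62.000 and 62.2 on day 8, 36.5, 39.99, 54.9 and 59.9 on day 13 and 67.4, 73.6, 63.3 and 62.3 with rapamycin. It was lowest in day 13 mice A and B, and control mouse A lay within the range of the day 6 mice. Srebf1 had log2 fold changes (± SE) against the controls of 0.012 ± 0.073 on day 4 (adjusted p = 0.956), -0.22 ± 0.061 on day 6 (adjusted p = 0.0357), -0.18 ± 0.066 on day 8 (adjusted p = 0.0994), -0.52 ± 0.16 on day 13 (adjusted p = 0.0401) and -0.039 ± 0.071 with rapamycin (adjusted p = 0.826). With rapamycin against day 13 the value for Srebf1 was 0.47 ± 0.16 (adjusted p = 0.0462). Scap, the escort, passed in no comparison, with log2 fold changes against the controls from -0.14 on day 13 to 0.075 on day 4. The changes of the factors' own transcripts were smaller than those of Insig1 or of the leading enzymes, and the activity of SREBP proteins was not measured.

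Sterol transport held genes that moved in opposite directions. Stard4, which carries cholesterol between membranes and is a known SREBP2 target, was at 30.1 to 31.6 CPM in the controls, 42.7 to 45.02 on day 6, 49.6 to 56.4 on day 8, 33.7 to 75.6 on day 13 and 25.2 to 26.7 with rapamycin. No group but day 4 overlapped the controls. For Stard4 the log2 fold change (± SE) against the controls was -0.046 ± 0.075 on day 4 (adjusted p = 0.799), 0.52 ± 0.042 on day 6 (adjusted p = 1.37e-05), 0.82 ± 0.055 on day 8 (adjusted p = 2.06e-05), 0.86 ± 0.20 on day 13 (adjusted p = 0.0136) and -0.23 ± 0.051 with rapamycin (adjusted p = 0.0247), and for rapamycin against day 13 it was -1.11 ± 0.20 (adjusted p = 0.00363). Abca1 exports cholesterol to apolipoproteins and is a known target of the LXR receptors, which sense oxysterols. Abca1 was at 128, 134, 139 and 134 CPM in the controls, 120.2, 120.4, 137 and 141 on day 4, 107, 98.8, 103 and 103 on day 6, 83.4, 87.8, 107 and 98.5 on day 8, 92.6, 127, 99.6 and 93.6 on day 13 and 151, 179, 149.6 and 169 with rapamycin. From day 6 on each untreated mouse lay below the controls, day 13 mouse B being the nearest, and each rapamycin mouse lay above. Against the controls, Abca1 had a log2 fold change (± SE) of -0.044 ± 0.055 on day 4 (adjusted p = 0.733), -0.38 ± 0.037 on day 6 (adjusted p = 4.85e-05), -0.50 ± 0.076 on day 8 (adjusted p = 0.00252), -0.37 ± 0.092 on day 13 (adjusted p = 0.0177) and 0.29 ± 0.059 with rapamycin (adjusted p = 0.018), and it had 0.65 ± 0.10 (adjusted p = 0.00198) with rapamycin against day 13. Abcg1, the other efflux pump, stayed at 97.05 to 101 CPM on day 8 against 97.8 to 105 in the controls and rose with rapamycin to 113 to 121 (0.21, SE 0.044, adjusted p = 0.0195).

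**Figure D5:**
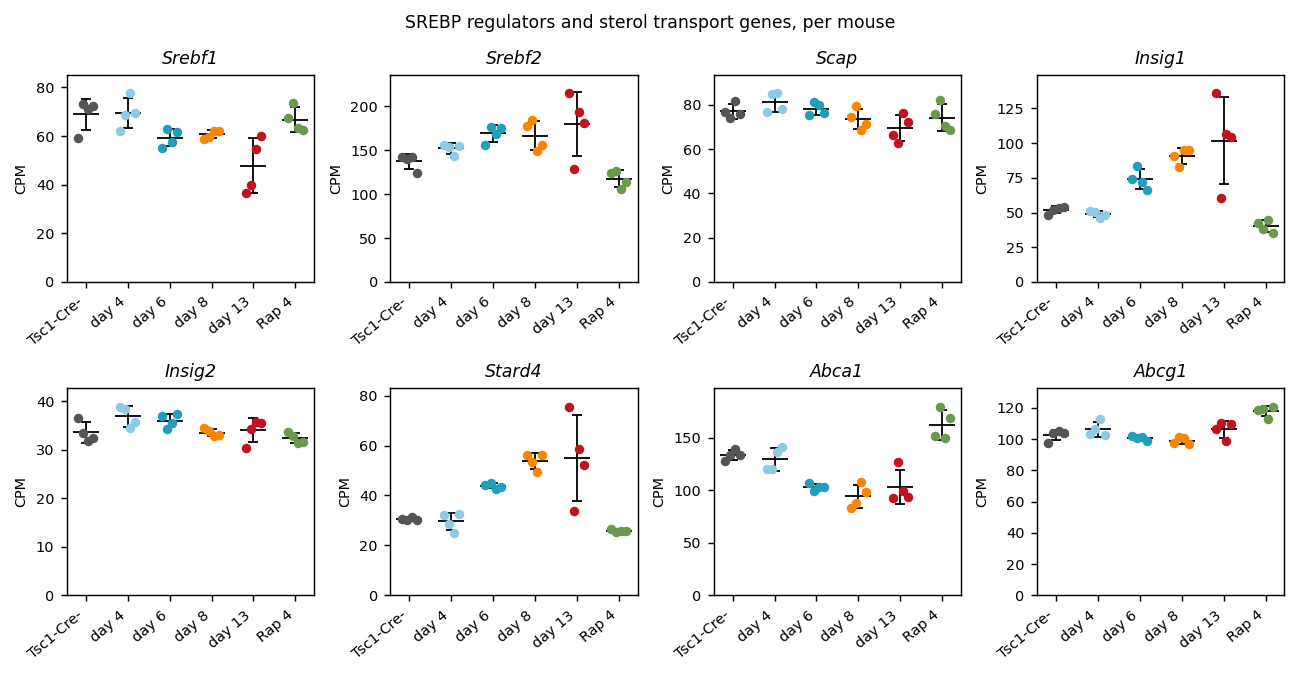
CPM (y axis, from 0) of the 5 regulators and the 3 sterol transport genes in each mouse (points) by group, with the mean (horizontal line) and SD (error bars, 4 mice); Rap 4 is the rapamycin group. Insig1 and Stard4 are higher in the untreated groups from day 6 on and lower with rapamycin. Abca1 is lower in the untreated groups on day 6 to day 13 and higher with rapamycin, and Scap and Insig2 stay near the controls.

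The 26 other genes of the pathway, a list of related enzymes, receptors and regulators outside the 36, had fewer that passed. On day 6, 1 rose, Aacs (0.48, SE 0.045, adjusted p = 3.13e-05), which makes acetoacetyl-CoA from ketone bodies, and 1 fell, the SREBP protease Mbtps1 (-0.16, SE 0.032, adjusted p = 0.00649). On day 8, 6 rose and 1 fell. They were Aacs (0.70), the SREBP-binding ER protein Erlin1 (0.48), Tmem97 (0.41), the lipoprotein receptor Vldlr (0.32), the acyl-CoA synthetase Acsl4 (0.29), Mbtps1 (-0.22) and Pcyt2 (0.20), which acts in phosphatidylethanolamine synthesis. On day 13, 10 rose and 1 fell, led by Aacs (0.74), Erlin1 (0.71), Acsl4 (0.61), Lrp8 (0.53), Tmem97 (0.53), Vldlr (0.51), Soat1 (0.49), which stores cholesterol as esters, and the lysosomal lipase Lipa (0.46). Over all genes, 6.24%, 8.41% and 15.6% rose at these 3 time points, and 3.81%, 4.87% and 11.3% fell. Under rapamycin none rose and 4 fell against the controls, Vldlr (-0.41, SE 0.049, adjusted p = 0.00117), Npc2, Pcyt2 and Elovl5, when 2.31% of all genes fell. Against day 13, 14 fell and 1, Mbtps1, rose, when 17.7% of all genes fell and 13.1% rose. The LXR receptors Nr1h2 and Nr1h3 passed in no comparison with the controls.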

How the data were processed

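Total RNA-Seq of hippocampus from 24 mice, 6 groups of 4, was analysed. The authors trimmed reads with cutadapt (1.16.5), aligned them with STAR (2.7.2b) to mm10 and counted them per gene with featureCounts (1.6.4), and they deposited raw counts per mouse, not normalized. Strand setting and multimapping were not given in the sources used here. Symbols came from GENCODE, which held 55144 of the 55385 identifiers. Groups were taken from the labels.

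Each comparison was fitted on its 8 mice with edgeR (4.0.16, R 4.3.3), by its quasi-likelihood test with filterByExpr, TMM factors and Benjamini-Hochberg adjustment over all genes tested. The thresholds were an adjusted p of 0.05 and, for DE, an absolute log2 fold change of 0.5. On data simulated from day 8 and the controls, edgeR recovered 60.5% of 200 genes changed 2-fold among 24656 genes, and 99% of the 105 with at least 4 CPM, with 6 false calls. These shares do not hold for changes smaller than 2-fold or for groups with a wider spread, such as day 13, which were not simulated. CPM values are counts scaled to TMM-adjusted library sizes. Total counts of 28208561 to 126435936 set the precision.

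The members and lists were chosen with earlier results of these data known. Members with an adjusted p under 0.05 were named in order of absolute log2 fold change, up to 20 a comparison, or the 3 largest where fewer passed. Alternatives were DESeq2 (1.42.0), a fit of all 24 mice, DESeq2 size factors, no filter and no fold minimum. Others were the log2 level of Xist as a covariate in place of a recorded sex, the replicate letter or animal series as a block, and each mouse left out. The steps between neighbouring days and the fits without pairs of day 13 mice were chosen after seeing the data.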

Additional observations from a re-analysis of the deposited data

Results flagged for a closer look

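In 11 of 216 sets of 4 mice, 1 set for each member and group, a mouse stood apart from the other 3 by Dixon's test, and chance gives about 1 in 20. On the low side these were Acat2 in control B (16.4 CPM), Srebf1 in control A (59.4), Abcg1 in control A (97.8), Srebf2 in control D (124), Dhcr7 in day 4 C (15.6), Fads1 in day 6 A (171), Hmgcs1 in day 8 B (246) and Dhcr7 in day 13 B (16.2). On the high side they were Acaca in day 13 C (149 CPM), Ebp in rapamycin A (9.64) and Scd2 in rapamycin D (1105).

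Levels differed between the day 4 and day 6 mice for 23 members by edgeR's test of day 6 against day 4, where time point and animal series cannot be told apart, and the values here are log2 differences. For cholesterol synthesis they were 0.56 for Acat2, 0.70 for Hmgcs1, 0.39 for Mvk, 0.81 for Mvd, 0.75 for Idi1, 0.55 for Fdps, 0.72 for Fdft1, 0.76 for Sqle, 0.31 for Lss, 0.52 for Cyp51, 0.84 for Msmo1, 0.58 for Nsdhl, 0.55 for Hsd17b7, 0.40 for Sc5d and 0.36 for Dhcr7. For the fatty acid genes they were 0.23 for Acly, 0.18 for Acss2, 0.20 for Fasn and 0.24 for Elovl6. For the other members they were 0.59 for Insig1, 0.56 for Stard4, -0.23 for Srebf1 and -0.34 for Abca1.

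Between the day 6 and day 8 mice, with the same limit, levels differed for 6 members, with log2 differences of 0.35 for Acat2, 0.44 for Hmgcs1, 0.38 for Fdft1, 0.36 for Nsdhl, 0.32 for Acly and 0.30 for Stard4.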

How the results depend on the processing

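Of 4788 values of single members recomputed under the alternatives, 4463 kept their side of the threshold, 240 lost it and 85 gained it. Of the members that passed, 0 changed sign, while values that had not passed could do so, such as Scd1 on day 6 (-0.072 to 0.036) and Fads2 with rapamycin against day 13 (-0.15 to 0.75). The counts below are of members with an adjusted p under 0.05 unless DE is named, and the cause of each change was not tested. For the refits other than DESeq2, here and in the paragraphs above, all-gene counts are not given. A changed count in them cannot be called particular to the members. With no fold minimum, the DE counts became 26 on day 6, 19 with rapamycin against the controls, 23 from day 4 to day 6 and 6 from day 6 to day 8. With all 24 mice in one fit, the counts were 9 on day 6, 7 with rapamycin against the controls, 4 between day 8 and day 13, 8 from day 4 to day 6 (7 DE) and 1 from day 6 to day 8. DESeq2 gave 3 on day 4 and 16 from day 6 to day 8, a step for which the Xist covariate left 0. Without day 13 mice C and D, 6 members passed between day 8 and day 13, 4 of them DE.

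When single mice were left out, the counts (DE counts) ranged from 0 to 1 (0 to 0) on day 4, 22 to 26 (9 to 11) on day 6, 23 to 25 (17 to 19) on day 8, 16 to 23 (16 to 19) on day 13, 13 to 19 (3 to 6) with rapamycin against the controls and 23 to 27 (22 to 24) against day 13. They ranged from 0 to 0 (0 to 0) between day 8 and day 13, 21 to 23 (10 to 13) from day 4 to day 6 and 0 to 9 (0 to 0) from day 6 to day 8. The 1 on day 4 came without control mouse A.

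The replicate letters did not pair the mice, since same-lettered deviations had correlations of -0.239 to 0.134. With the letter as a replicate block, the counts (DE counts) were 0 (0) on day 4, 26 (9) on day 6, 24 (19) on day 8, 19 (18) on day 13, 19 (5) with rapamycin against the controls, 25 (22) against day 13, 0 (0) between day 8 and day 13, 23 (13) from day 4 to day 6 and 1 (0) from day 6 to day 8.

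Over all genes, edgeR and DESeq2 gave counts with an adjusted p under 0.05 of 0 and 207 higher and 0 and 111 lower between day 8 and day 13, and of 84 and 621 higher and 20 and 443 lower from day 6 to day 8. They were 660 and 1125 higher and 394 and 847 lower on day 4, 314 and 658 higher and 578 and 1071 lower with rapamycin against the controls, and 588 and 1150 higher and 454 and 751 lower from day 4 to day 6.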
